A study of Homo sapiens with 27 samples.

Results

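The miR-181 family was measured by 7 probes for mature strands among 774 human microRNA (miRNA) probes (784 probes with the control probes) hybridised with RNA of the line OCI-AML3, an established human acute myeloid leukaemia cell line. The 7 were all probes for mature strands whose name begins with miR-181 and a letter from a to d, star strands included: hsa-miR-181a, hsa-miR-181b, hsa-miR-181c, hsa-miR-181d, hsa-miR-181a*, hsa-miR-181a-2* and hsa-miR-181c*, written below without hsa-. A signal here is the deposited log2 value of a probe. The 27 arrays form 9 groups of 3. The control cells were untreated and harvested at 0 h. Cells of 4 groups were given SDF-1α at 100 ng/mL, the chemokine (CXCL12) that activates the receptor CXCR4, and were harvested after 1, 2, 4 or 8 h. Cells of the other 4 groups were given POL6326 at 250 nM, an antagonist of CXCR4, for the same times. All groups are 1 cell line in culture, so nothing here extends to other leukaemias, and no label tells whether a group's 3 arrays stem from different cultures. P-values then measure only how far these arrays scatter, which may be technical.

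A miRNA is cut from a hairpin transcript, and either arm of the hairpin can be loaded into the silencing complex, where the seed, bases 2 to 8, pairs with target messenger RNAs. The strand without an asterisk on this array is the 5′ (5p) arm, the main product of each miR-181 gene, and the asterisk marks the opposite 3′ (3p) arm, usually the less used strand. In blood, miR-181a is known from mouse for promoting B-lineage development and for setting the sensitivity of T-cell receptor signalling. In acute myeloid leukaemia, higher miR-181 levels have been linked to certain genetic subtypes and to outcome.

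The human genes lie in 3 pairs (GRCh38.p14, RefSeq). MIR181A1 and MIR181B1 are on chromosome 1 (chr1:198858873-198859153), 61 bases apart and within the coordinates of the long noncoding RNA gene MIR181A1HG. MIR181A2 and MIR181B2 are on chromosome 9 (chr9:124692442-124693798), 1158 bases apart and within those of MIR181A2HG. MIR181C and MIR181D are on chromosome 19 (chr19:13874699-13875011), 66 bases apart. All 7 probes matched a mature RefSeq sequence once the asterisk names were read as the 3p arm of the named gene. The sequences are shown, seed in capitals, because the strands differ in seed by arm and the results are given arm by arm.
miR-181a (5p): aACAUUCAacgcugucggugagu
miR-181b (5p): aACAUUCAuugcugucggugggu
miR-181c (5p): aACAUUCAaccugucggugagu
miR-181d (5p): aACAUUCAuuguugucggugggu
miR-181a* (3p): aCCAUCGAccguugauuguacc
miR-181a-2* (3p): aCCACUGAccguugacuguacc
miR-181c* (3p): aACCAUCGaccguugaguggac

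The 4 strands of the 5p arm share 1 seed, and 1 further mature miRNA in the RefSeq table, miR-4262, has it too. Each of the 3 strands of the 3p arm has a seed of its own, shared with 0 other mature miRNAs in that table. The 5p strands are close to one another. Counting from 1 at the 5′ end, with miR-181a's or miR-181b's base first, miR-181b differs from miR-181a by A9U, C10U and A21G, and miR-181d differs from miR-181b by C12U alone. miR-181c is 22 bases long against 23 and is 1 edit (a deletion) from miR-181a. Strands this similar may share signal on hybridised probes, which was not tested. Of the 3p strands, miR-181a-2* differs from miR-181a* by U5C, C6U and U16C, and miR-181c* shares a run of 15 bases with miR-181a*. The miR-181a 5p strand comes from both MIR181A1 and MIR181A2, whereas miR-181a-2* comes from MIR181A2 alone and miR-181c* from MIR181C alone.

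The hairpins of those 2 genes show how the arms lie, with the 5p strand and then the 3p strand in capitals.
MIR181A2 (chr9:124692442-124692551, plus strand): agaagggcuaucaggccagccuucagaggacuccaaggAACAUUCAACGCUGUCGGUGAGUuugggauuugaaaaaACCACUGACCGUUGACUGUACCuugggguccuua
MIR181C (chr19:13874699-13874808, plus strand): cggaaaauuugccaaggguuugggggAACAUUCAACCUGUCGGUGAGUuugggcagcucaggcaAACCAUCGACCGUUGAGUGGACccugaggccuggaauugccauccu

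On every array many low probes hold 1 identical log2 signal, between 4.27 and 4.43, called the floor here, and the lowest signal above it is taken as that array's detection limit. The number of probes above the floor was 210 to 241 per array with SDF-1α at 1 h and 482 to 593 with POL6326 at 4 h, and 257 to 560 in the other groups. The detection limits were 6.88 to 7.42 with SDF-1α at 1 h, 4.27 to 4.45 with POL6326 at 4 h and 4.30 to 6.45 elsewhere. As markers of a blood cell, miR-223 read 13.88 to 15.46 over the 27 arrays, and miR-150 and miR-142-5p were above the floor on 27 of 27, but miR-142-3p on 4 of 27. Some probes for other tissues were also above the floor on 27 of 27 arrays: miR-122 (liver), miR-206 (muscle), miR-205 and miR-429 (epithelium). Others of those lists were less often above it. For muscle these were miR-133b on 26 or 18 by probe orientation, miR-133a on 5 or 13 and miR-1 on 9. For epithelium they were miR-141 on 21, miR-200b on 19, miR-203 on 15, miR-200a on 5 and miR-200c on 3.

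The 7 probes differed in how often they could be read. The 3p strands miR-181a-2* and miR-181c* were above the floor on 27 of 27 arrays. The 5p strands miR-181c and miR-181d were above it on 25 and 20, miR-181a* on 17, miR-181b on 12 and miR-181a on 10. A limit of 7.42, the highest detection limit of any array, was passed by miR-181c* on 27 arrays, miR-181a-2* on 24, miR-181c on 14, miR-181d on 5, miR-181b on 4, and by miR-181a and miR-181a* on 0. Values of miR-181a-2* and miR-181c* thus lay above the floor throughout, and a fitted difference for the others depends in part on where the floor lies. For miR-181a-2* the size at 4 h of POL6326 also changed when 7.42 was set as the limit for all arrays, as given below. Some probes for other tissues were above the floor on every array too. The medians over the 27 arrays were 8.58 for miR-181a-2* and 4.63 for miR-181a*, against 4.36 for miR-181a. They were 9.36 for miR-181c* and 7.45 for miR-181c. These 3p probes thus read higher than the 5p probes, opposite to the usual order of the arms, for a reason that was not tested. Whether a signal above the floor comes only from the named strand was not tested.

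**Figure D1:**
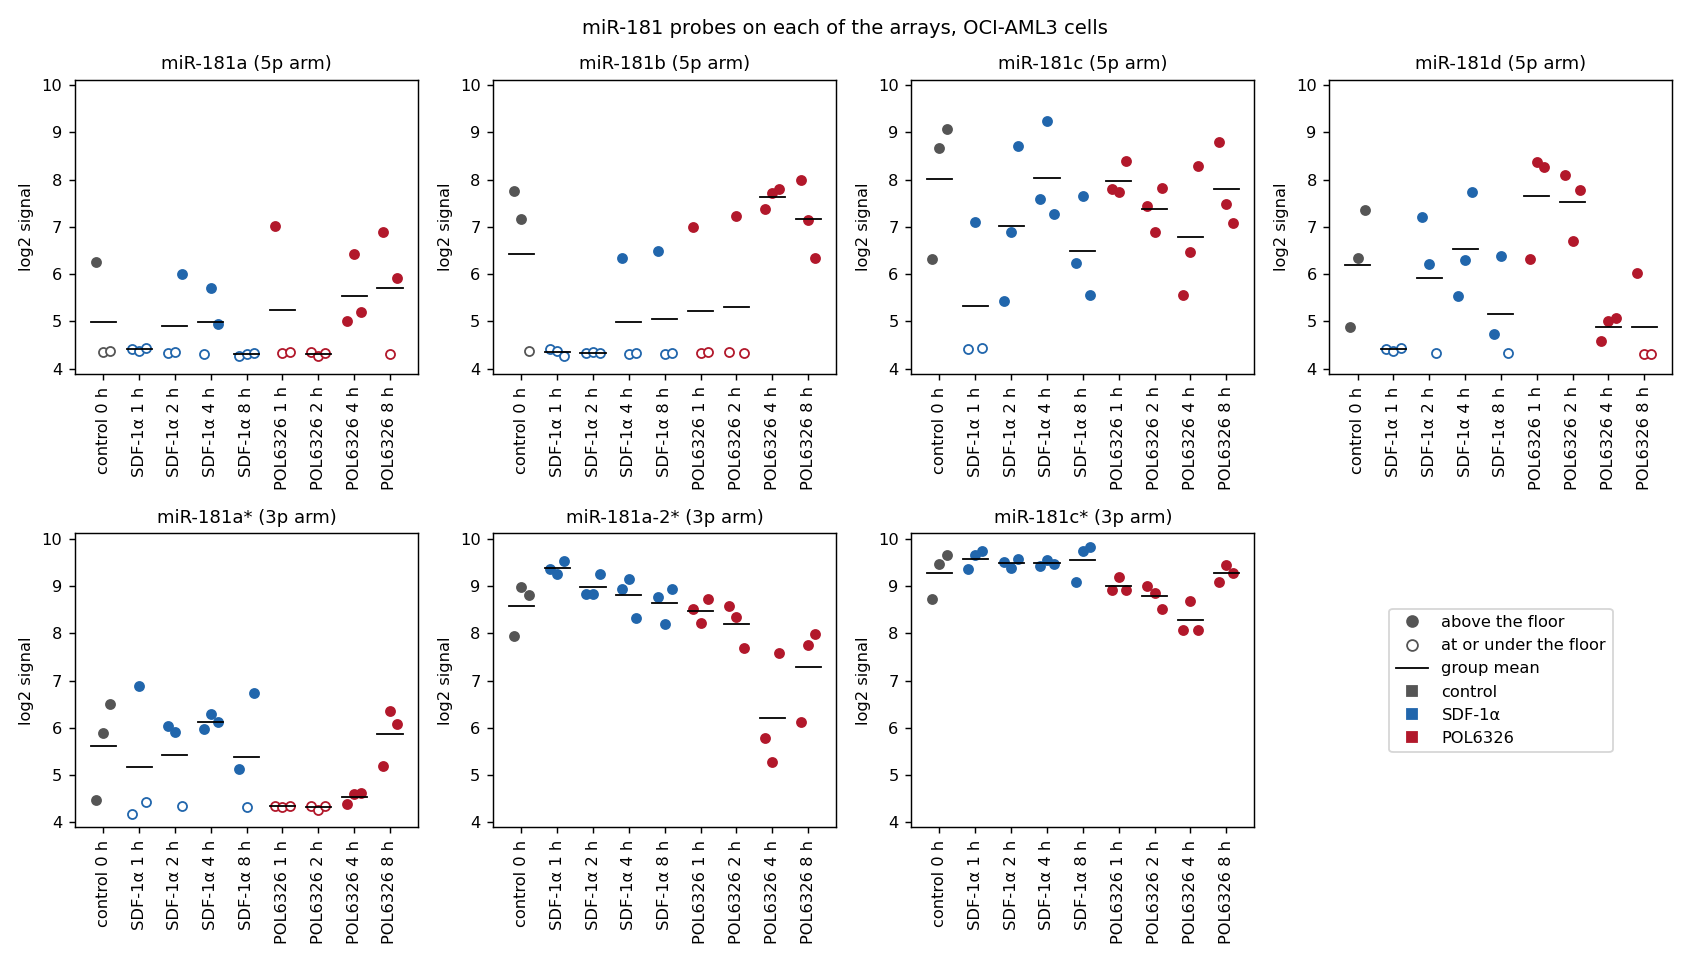
Log2 signal (y axis) of the 7 miR-181 probes on each of the 27 arrays, by group (x axis). Each point is 1 array, open where it is at or under the floor, and the line is the mean of a group's 3 arrays. miR-181a-2* and miR-181c* have filled points throughout and lie lower in the POL6326 groups than in the SDF-1α groups, with the lowest means (6.21 and 8.28) at 4 h of POL6326.

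The 3p strand of MIR181A2 was lower after the antagonist than after the ligand at each time. In control cells miR-181a-2* read 7.94, 8.98 and 8.81. After SDF-1α the 1 h arrays read 9.37, 9.25 and 9.53, those of 2 h read 8.84, 8.82 and 9.26, those of 4 h read 8.94, 9.15 and 8.32, and those of 8 h read 8.77, 8.20 and 8.93. After POL6326 the 1 h arrays read 8.51, 8.21 and 8.72, those of 2 h read 8.58, 8.34 and 7.69, those of 4 h read 5.79, 5.28 and 7.58, and those of 8 h read 6.13, 7.76 and 7.99. At every time the 3 POL6326 arrays lay under the 3 SDF-1α arrays, whereas over all times the ranges (5.28 to 8.72 and 8.20 to 9.53) overlapped, as they did for every probe (0% of 774 were apart). Over the 4 times the mean was 7.55 ± 1.17 with POL6326 and 8.95 ± 0.40 with SDF-1α (SD, n = 12 each), a 2.64-fold lower level (log2 difference -1.40, SE 0.25, adjusted p = 0.00119). Adjusted p-values here and throughout come from limma's moderated test with Benjamini-Hochberg adjustment over the 774 probes (or over those kept, in alternatives that filter probes), with the threshold at 0.05. In bulk RNA, fewer cells carrying a miRNA and less of it in each cell cannot be told apart.

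The 3p strand of MIR181C moved the same way over a narrower range. In control cells miR-181c* read 8.72, 9.46 and 9.67. After SDF-1α the 1 h arrays read 9.36, 9.66 and 9.73, those of 2 h read 9.51, 9.38 and 9.57, those of 4 h read 9.42, 9.56 and 9.47, and those of 8 h read 9.10, 9.73 and 9.83. After POL6326 the 1 h arrays read 8.91, 9.18 and 8.92, those of 2 h read 9.0, 8.85 and 8.51, those of 4 h read 8.07, 8.69 and 8.08, and those of 8 h read 9.08, 9.44 and 9.28. The arrays of the agents did not overlap at 1, 2 and 4 h and did at 8 h. Over the 4 times miR-181c* averaged 8.83 ± 0.44 after POL6326 and 9.53 ± 0.20 after SDF-1α (SD, n = 12 each), which is 1.62-fold lower (log2 difference -0.69, SE 0.11, adjusted p = 0.00046).

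Among all 774 probes, the share whose arrays of the agents did not overlap was 9.04% for the 1 h groups, 15.1% for 2 h, 23.4% for 4 h and 7.62% for 8 h, a value at the floor being allowed to lie anywhere up to its array's detection limit. Separation at all 4 times with POL6326 lower was seen for miR-181a-2* alone (0.129% of probes). Separation with POL6326 lower at 3 or more times, which miR-181c* also had, was seen for 1.81%. With POL6326 higher at all 4 times it was seen for 3 probes (0.388%), miR-136*, miR-138 and the Plus/Minus probe of miR-138-1*. The group means of miR-181a-2* and miR-181c* were ordered alike, with the 4 SDF-1α groups above control and the 4 POL6326 groups below it. That order was found for 3 of 774 probes (0.388%), the third being miR-424, and the opposite order for miR-375 and miR-579 (0.258%). These patterns and the probes outside the family were singled out after their values were seen. For miR-181a-2* the order was SDF-1α at 1, 2, 4 and 8 h (9.38, 8.97, 8.80 and 8.64), control (8.57), then POL6326 at 1, 2, 8 and 4 h (8.48, 8.20, 7.29 and 6.21). For miR-181c* it was SDF-1α at 1, 8, 2 and 4 h (9.58, 9.55, 9.49 and 9.48), control (9.28), then POL6326 at 8, 1, 2 and 4 h (9.27, 9.01, 8.79 and 8.28). Each group's arrays overlapped those of its neighbour in both orders.

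Taken by time, 2 of the 7 probes, miR-181a-2* and miR-181c*, were lower past the threshold at 4 h, when 9.82% of all probes passed and 6.07% were lower. miR-181a-2* was then lower by a log2 difference of -2.59 (SE 0.50, adjusted p = 0.00403) and miR-181c* by -1.21 (SE 0.22, adjusted p = 0.00403). At 1, 2 and 8 h the differences were -0.90, -0.77 and -1.34 for miR-181a-2* (SE 0.50 each; adjusted p = 0.283, 0.555 and 0.317), and -0.58, -0.70 and -0.29 for miR-181c* (SE 0.22 each; adjusted p = 0.158, 0.104 and 0.827). At 2 h 0 of 7 passed (4.13% of all probes did) and at 8 h 0 of 7 (1.03%). With 3 arrays against 3 the smallest exact permutation p is 0.1, so a call at a single time depends on limma's pooled variance. Detection also moved with these results, since at 4 h the number of probes above the floor was 482 to 593 per array with POL6326 and 362 to 381 with SDF-1α. At 2 h the arrays of the agents did not overlap for either strand, as for 15.1% of all probes, and neither strand passed. The number of probes above the floor was there 318 to 333 with POL6326 and 317 to 332 with SDF-1α. With that number as a covariate the 4 h calls ended (log2 -2.04, adjusted p = 0.0866 for miR-181a-2*, and -0.70, adjusted p = 0.0631 for miR-181c*), and when only the 2 groups of that time were fitted so did that of miR-181a-2* (adjusted p = 0.105). Over the 4 times the covariate left both past the threshold (log2 -1.16, adjusted p = 0.0172, and log2 -0.47, adjusted p = 0.00264). With 1 detection limit of 7.42 for all arrays, the 4 h difference of miR-181a-2* was -1.33. POL6326 arrays 1 and 2 of that time (5.79 and 5.28) lay under that limit.

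**Figure D2:**
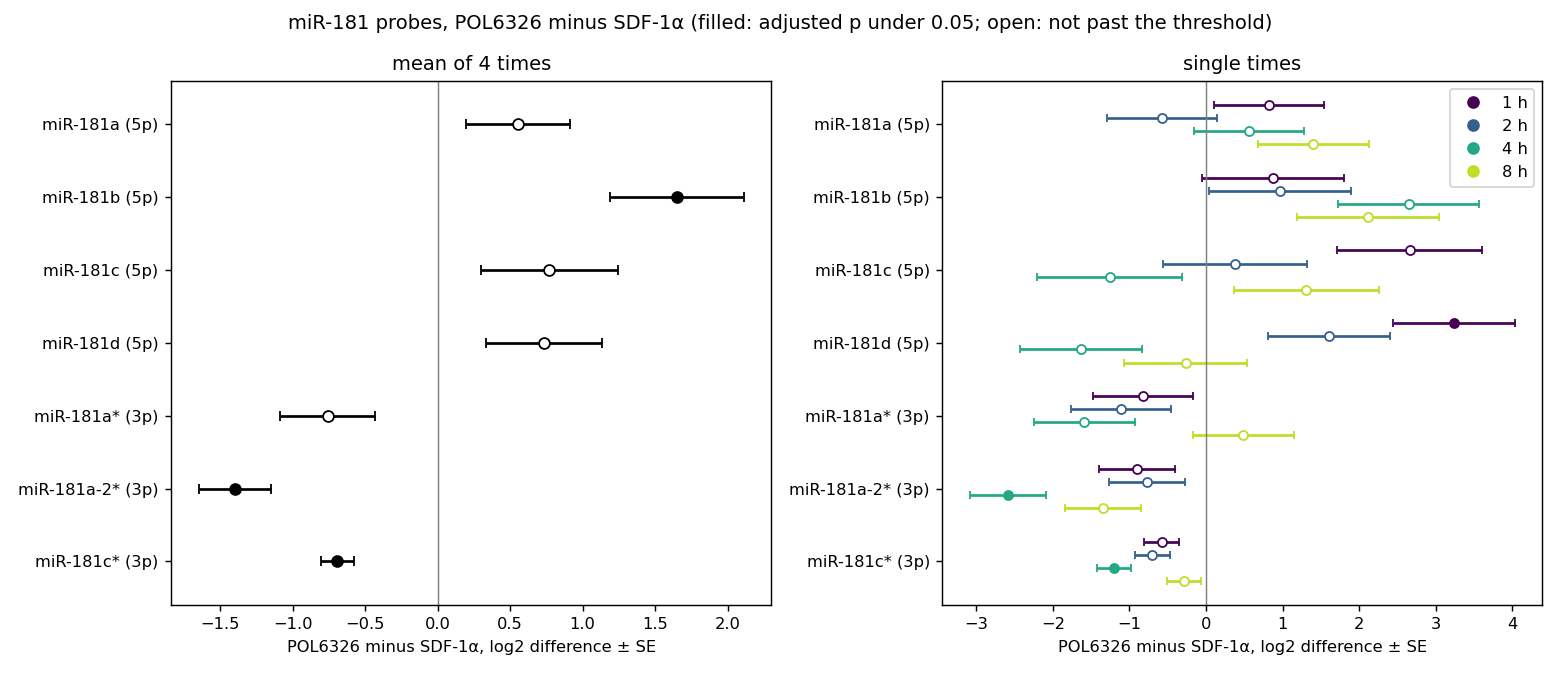
Log2 difference, POL6326 minus SDF-1α, with its SE (x axis) for the 7 miR-181 probes (y axis), as the mean of 4 times (left) and at each time (right). Filled points passed an adjusted p of 0.05. In the left panel the 4 probes of the 5p arm lie above 0 and the 3 of the 3p arm below it (miR-181d turned to -0.10 without the 1 h arrays), and miR-181b, miR-181a-2* and miR-181c* passed.

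Of the 5p strands, miR-181b was more often detected after POL6326. In control cells it read 7.76 and 7.17 and was at the floor on the third array. After SDF-1α it was at or under the floor on all arrays at 1 and 2 h, and above it on 1 array at 4 h (6.34) and 1 at 8 h (6.50). After POL6326 it was above the floor on 1 array at 1 h (7.0) and 1 at 2 h (7.24), and on all arrays at 4 h (7.37, 7.72 and 7.80) and 8 h (8.00, 7.14 and 6.35). It was thus detected on 8 of 12 arrays of POL6326, against 2 of 12 of SDF-1α. These counts compare unequal detection limits. Above 7.42, the highest limit of any array, miR-181b lay on 3 arrays of POL6326 and 0 of SDF-1α. The mean of 4 times was 6.33 ± 1.53 with POL6326 and 4.68 ± 0.81 with SDF-1α (SD, n = 12 each), a log2 difference of 1.65 (SE 0.46, adjusted p = 0.0284) whose size depends on where the floor lies. It passed at none of 1, 2, 4 and 8 h (log2 0.88, 0.97, 2.64 and 2.11, adjusted p = 0.678, 0.864, 0.0804 and 0.425). The call ended with 1 detection limit for all arrays, which leaves 274 probes to test (log2 0.10, adjusted p = 0.238), with a covariate for probes above the floor (log2 1.13, adjusted p = 0.21) and without the 4 h arrays (log2 1.32, adjusted p = 0.191). It also ended without array 2 of SDF-1α at 4 h, array 2 or 3 of SDF-1α at 8 h, or array 1 of POL6326 at 8 h, with adjusted p up to 0.0532. Its group means ran from POL6326 at 4 h (7.63) and 8 h (7.16) through control (6.43) to SDF-1α at 2 h (4.34), and each group overlapped its neighbour in that order.

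The probe of its chromosome 9 precursor, mir-181b-2, did not pass between the agents. It was measured above the floor on 26 of 27 arrays, with a mean of 5.99 ± 0.75 with POL6326 and 6.0 ± 0.90 with SDF-1α (SD, n = 12 each; log2 difference -0.01, SE 0.31, adjusted p = 0.991). The difference between the mature and precursor changes was not tested. The other precursor on the array, mir-181d, was at the floor on 26 of 27 arrays.

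miR-181d, the strand 1 base from miR-181b, differed between the agents with opposite signs at 1 and 4 h. In control cells it read 4.88, 6.33 and 7.36. After POL6326 the 1 h arrays read 6.31, 8.37 and 8.26, those of 2 h read 8.10, 6.70 and 7.79, those of 4 h read 4.59, 5.01 and 5.07, and 1 array of 8 h read 6.03 with 2 at the floor. After SDF-1α all 3 arrays of 1 h were at the floor, those of 2 h read 7.21 and 6.22 with 1 at the floor, those of 4 h read 5.55, 6.30 and 7.74, and those of 8 h read 4.73 and 6.38 with 1 at the floor. At 1 h miR-181d passed as at least 1.40-fold higher in the POL6326 arrays (adjusted p = 0.0284), when 3.49% of probes passed and 3.1% were higher. Its SDF-1α level there is only a bound, and POL6326 array 1 (6.31) lay under the detection limits of the SDF-1α arrays. The means there were 7.65 with POL6326 and 4.41 with SDF-1α, and the first lay close to the SDF-1α detection limits of 6.88 to 7.42. Later differences were 1.61, -1.64 and -0.27 at 2, 4 and 8 h (SE 0.80 each; adjusted p = 0.387, 0.228 and 1). The call at 1 h ended with the groups of that time fitted alone (adjusted p = 0.0822) and without any 1 of 5 arrays: the 3 of SDF-1α, or array 2 or 3 of POL6326 (adjusted p 0.0624 to 0.115). Its group means ran from POL6326 at 1 h (7.65) and 2 h (7.53) through control (6.19) to SDF-1α at 1 h (4.41), with overlap between all neighbours.

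miR-181c, miR-181a and miR-181a* did not pass between the agents. miR-181c read 5.57 to 8.80 on the POL6326 arrays (median 7.61) and 4.42 to 9.24 on the SDF-1α arrays (median 6.99). Its log2 difference was 0.77 (SE 0.47, adjusted p = 0.296), and by time it was 2.66, 0.37, -1.26 and 1.31 (SE 0.94 each; adjusted p = 0.158, 0.995, 0.407 and 0.776). The 1 h value rests on 2 of 3 SDF-1α arrays at the floor. miR-181a reached 7.02 with POL6326, where 6 of 12 arrays detected it, and 6.0 with SDF-1α, where 3 of 12 did (log2 difference 0.55, SE 0.36, adjusted p = 0.325). miR-181a*, the 3p strand of MIR181A1, was detected by 6 of 12 arrays with POL6326, all at 4 and 8 h, and by 8 of 12 with SDF-1α (log2 difference -0.76, SE 0.33, adjusted p = 0.173). At 4 h it read 4.39, 4.61 and 4.63 with POL6326 and 5.97, 6.29 and 6.13 with SDF-1α. Those POL6326 values lay under the SDF-1α detection limits of that time (4.70 to 4.94), so the detection counts compare unequal limits. The arrays were apart, as for 23.4% of all probes, and the difference missed the threshold (log2 -1.59, SE 0.66, adjusted p = 0.142). It passed when the 2 groups were fitted alone (adjusted p = 0.00372) or with median centring (adjusted p = 0.0304).

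Counted together, 3 of the 7 probes passed for the agents' difference over the time course, when 9.82% of all probes did. One was higher (5.43% of all probes) and 2 were lower (4.39%). The median log2 difference of the 7 was 0.55, against -0.03 over all probes, and it stands between arms that lie on opposite sides of 0. For the 4 probes of the 5p arm the differences were 0.55 to 1.65 and for the 3 of the 3p arm -1.40 to -0.69. The split by arm was noticed in these values and was not tested, and miR-181d turned to -0.10 without the 1 h arrays. It did not hold at every time: miR-181a stood at -0.58 at 2 h, miR-181c at -1.26 and miR-181d at -1.64 at 4 h, and miR-181a* at 0.48 at 8 h, none past the threshold. Of the arms of MIR181C, miR-181c* passed over the 4 times (-0.69) and miR-181c did not (0.77, SE 0.47), and at 4 h both were below 0 (-1.21 and -1.26).

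Over time, 3 of the 7 probes changed between 1, 2, 4 and 8 h of POL6326 by a moderated F-test, which 13.6% of all probes passed: miR-181a-2* (adjusted p = 0.0152), miR-181d (adjusted p = 0.0187) and miR-181c* (adjusted p = 0.0235). The POL6326 means of miR-181a-2* and miR-181c* were lowest at 4 h (6.21 and 8.28) and stood at 7.29 and 9.27 at 8 h, whereas that of miR-181a* was lowest at 2 h (4.32), with all 3 arrays at the floor. With SDF-1α 0 of 7 changed with time, against 5.68% of all probes, and at an unadjusted p under 0.05 the count was also 0, the lowest p being 0.0634 for miR-181c. The difference between the agents varied with time in 0 of 7 probes (3.88% of all probes), with the lowest adjusted p at 0.0511 for miR-181d, which alone had an unadjusted p under 0.05 (0.00211).

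Against the 0 h control, the agent's part and that of hours in culture cannot be told apart, and the comparisons of both agents share the same 3 control arrays. Of the 7 probes 0 passed with SDF-1α over the 4 times (2.84% of all probes did) and 0 with POL6326 (3.75%). miR-181a-2* stood 0.37 above control with SDF-1α (SE 0.39, adjusted p = 0.892) and differed by -1.03 with POL6326 (SE 0.39, adjusted p = 0.173). miR-181c* stood 0.25 above with SDF-1α (SE 0.18, adjusted p = 0.7) and differed by -0.45 with POL6326 (SE 0.18, adjusted p = 0.192). miR-181b differed by -1.75 with SDF-1α (SE 0.73, adjusted p = 0.267) and by -0.10 with POL6326 (SE 0.73, adjusted p = 0.989). Before adjustment, p was under 0.05 for 1 of 7 with SDF-1α (miR-181b) and for 2 of 7 with POL6326 (miR-181a-2* and miR-181c*).

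At single times against control, 2 of the 7 passed, both at 4 h of POL6326, when 4.39% of all probes did and 2.71% were lower. miR-181a-2* was 5.14-fold lower (log2 difference -2.36, SE 0.50, adjusted p = 0.011) and miR-181c* 2.01-fold lower (log2 difference -1.0, SE 0.22, adjusted p = 0.0139). With 1 detection limit of 7.42 for all arrays, the difference of miR-181a-2* was -1.10. Both calls ended with a covariate for probes above the floor (adjusted p = 0.0929 and 0.157), with the 2 groups fitted alone (adjusted p = 0.215 and 0.251) and without control array 2 (adjusted p = 0.0773 and 0.0787). That of miR-181a-2* also ended without array 2 of POL6326 at 4 h (adjusted p = 0.0617), and that of miR-181c* without control array 3 or array 1 or 3 of POL6326 at 4 h (adjusted p = 0.0725, 0.0725 and 0.05). At the other 3 times of POL6326 0 of 7 passed, against 4.78% of all probes at 1 h, 4.26% at 2 h and 3.1% at 8 h. With SDF-1α 0 of 7 passed at 1, 2, 4 and 8 h, against 3.88%, 2.58%, 1.94% and 2.2% of all probes. The largest fitted difference there was that of miR-181c at 1 h (-2.71, SE 0.94, adjusted p = 0.0885), where 2 of 3 SDF-1α arrays were at the floor. Next came miR-181b at 2 h (-2.09, adjusted p = 0.293) and 1 h (-2.08, adjusted p = 0.145), at or under the floor on all those SDF-1α arrays.

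Other miRNAs known from blood cells were taken as a list of 20 probes (star strands and reverse-orientation probes included). Between the agents over the 4 times 2 were higher with POL6326 and 2 lower, with a median log2 difference of 0.11. Of all 774 probes, 5.43% were higher and 4.39% lower. The smallest p belonged to miR-146a, a restraint on NF-kB signalling (1.59, SE 0.29, adjusted p = 0.00143), which was undetected on 10 of 12 arrays of SDF-1α. Next were miR-126* (1.81, SE 0.36, adjusted p = 0.00306), undetected on 6 of those 12, and miR-424 (-1.34, SE 0.29, adjusted p = 0.00548). The fourth call, named after its values were seen, was miR-24 (-0.79, SE 0.17, adjusted p = 0.00548). Reverse-orientation (Plus/Minus) probes of miR-126* (0.22, adjusted p = 0.303) and miR-24 (-0.30, adjusted p = 0.483) did not pass. Against control 1 of 20 fell with SDF-1α, miR-221 (-1.49, SE 0.40, adjusted p = 0.0498), when 1.94% of all probes did. With POL6326 1 of 20 fell, miR-24 (-1.15, SE 0.27, adjusted p = 0.0181), again beside 1.94% of all probes.

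Likeness to other miRNAs was described by Pearson's r over the 27 arrays, among 273 mature probes outside the family that were above the floor on at least 50% of arrays. These arrays share a scale and differ in the number of probes above the floor, and no test was made. For miR-181c* the highest values were with miR-560 (0.82), miR-424 (0.81) and miR-663 (0.78). For miR-181a-2* they were with miR-373* (0.77), miR-10b (0.74) and miR-424 (0.74), so that miR-424 stood among the 3 most alike for miR-181c* and miR-181a-2*, though not for miR-181a*. For miR-181c they were with miR-19b (0.74), miR-516a-5p (0.64) and miR-17 (0.60), for miR-181d with miR-590-5p (0.68), miR-625* (0.61) and miR-768-5p (0.60), and for miR-181a* with miR-560 (0.57), miR-299-5p (0.53) and miR-92b* (0.53). Within the family r was 0.66 between miR-181a-2* and miR-181c*, and -0.01 between miR-181c* and miR-181c, the arms of 1 hairpin. With an array's number of probes above the floor, r was -0.72 for miR-181a-2*, -0.66 for miR-181c* and 0.67 for miR-181b. It was 0.43 for miR-181a, 0.02 for miR-181c, -0.18 for miR-181a* and -0.23 for miR-181d.

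**Figure D3:**
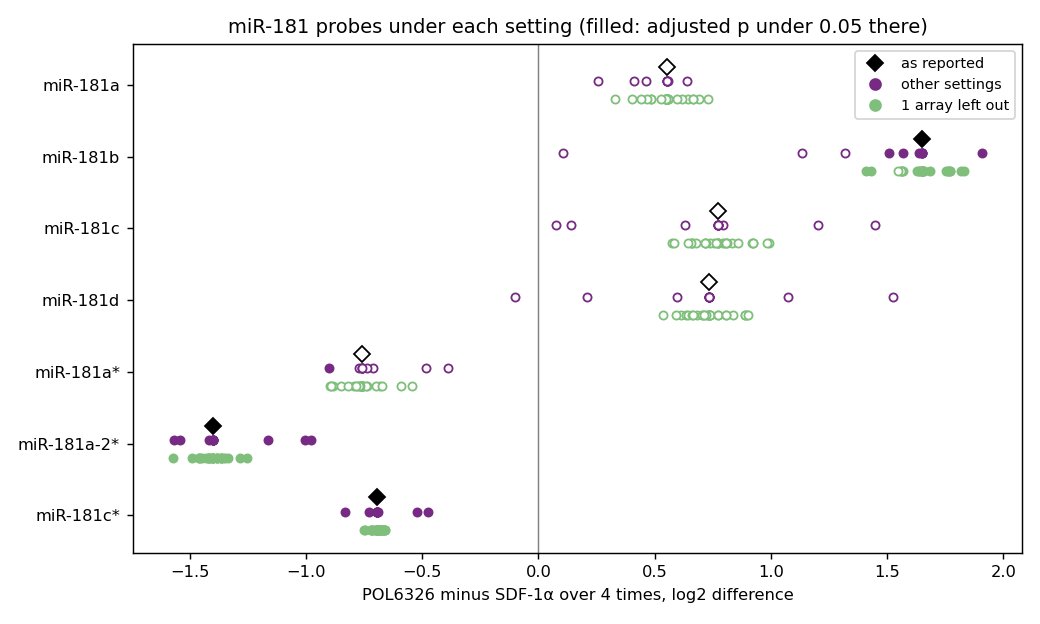
Log2 difference, POL6326 minus SDF-1α over 4 times (x axis), for each miR-181 probe (y axis) as reported (diamond), under other settings (purple) and with 1 array left out (green), filled where the adjusted p was under 0.05. miR-181a-2* and miR-181c* stayed below 0 and past the threshold in all 39 alternatives, whereas miR-181b passed in 31 of 38.

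Across the 39 alternatives the difference ranged from -1.57 to -0.98 for miR-181a-2* (adjusted p 3.52e-05 to 0.0459) and from -0.83 to -0.47 for miR-181c* (adjusted p 0.00011 to 0.0178). The highest p for each came without the 4 h arrays, where the differences were -1.01 and -0.52.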

How the data were processed

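The authors deposited log2 signals of a miRNA chip, 1 array per sample, hybridised with biotin-labelled targets per the labels' protocols. The sources used here name no scanner software, background correction or normalization. All 27 columns share 1 maximum (15.46), and no further normalization was applied in the reported fit. Identical values also recur between arrays and probes, as 9.07749 for miR-181c on control array 3 and for miR-181c* on array 1 of POL6326 at 8 h. Which earlier step gave these shared values was not tested. The floor is an array's most frequent value (tolerance 1e-04), and a value at or under it counts as at the floor. A model with 1 mean for each of 9 groups was fitted to 774 human miRNA probes with limma 3.58.1 in R 4.3.3 (18 residual and 0.90 prior degrees of freedom). The 10 control probes were left out. A bound (at least N-fold) sets the brighter group's mean against the other's mean of, per array, the higher of the detection limit and the probe's value. Alternatives were other normalizations, filters and floors, a covariate, a replicate block, left-out times and left-out arrays. P-values are two-sided. The scripts were tested on simulated data, and no 2 arrays were identical.

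The family, lists, comparisons and alternatives were chosen with earlier results of these data known. The named probes are all miR-181 probes, up to 3 of the blood-cell list per comparison over 4 times, and the 3 most alike for each member above the floor on at least 50% of arrays. The reported fit did not pair arrays by replicate number, and whether the numbers pair them was not tested. Of 108 same-number pairs, 19 had deviations correlated over 0.1 (median 0.02, highest 0.54 over all pairs). By the same measure, 17 arrays correlated best with their own number.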

Additional observations from a re-analysis of the deposited data

Results flagged for a closer look

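In the values as deposited, miR-181d lay on opposite sides at different times: the POL6326 arrays were above the SDF-1α arrays at 1 h (fitted log2 difference 3.24) and below them at 4 h (-1.64). The 1 h value is set against 3 arrays at the floor and is no measured size: the bound is at least 1.40-fold. With floor values allowed up to their arrays' detection limits (6.88 to 7.42) the 1 h groups overlap, since POL6326 array 1 read 6.31, and only the 4 h groups stay apart. The variation of this difference with time missed the threshold (limma's moderated F-test, adjusted p = 0.0511).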

How the results depend on the processing

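miR-181a-2* and miR-181c* kept their direction and their call between the agents over 4 times in all 39 alternatives, 27 of which leave out 1 array. miR-181b, which 1 filter on dim probes removed, kept its direction in 38 of 38 and its call in 31, and miR-181d, which was not called, turned to -0.10 without the 1 h arrays. miR-181a* passed with median centring (-0.90, adjusted p = 0.0383). The number of all probes past the threshold, 76, became 310 with median centring (44 higher and 266 lower), 39 with a covariate for probes above the floor (30 and 9) and 44 without the 4 h arrays (34 and 10). It was 58 to 90 with 1 array left out. The cause was not tested. The array median was the floor itself on all POL6326 arrays of 1 and 2 h, and 4.53 to 4.77 on those of 4 and 8 h. On the SDF-1α arrays it was the floor except on array 1 of 8 h (4.59). Median centring thus moved values at the floor by unequal amounts, which also limits the passes of miR-181a* under it. The number of miR-181 probes called against control over 4 times was 0 to 1 with 1 array left out, for SDF-1α (1, miR-181b, without control array 3) and for POL6326 (1, miR-181c*, without control array 1, and 1, miR-181a-2*, without array 3 at 4 h). With the replicate block between the agents over 4 times, 79 probes and 3 of the 7 passed (miR-181b at adjusted p = 0.0152), and at 4 h miR-181b joined the calls (adjusted p = 0.0424). The block changed no other call of a miR-181 probe among the comparisons tested. Among the 3 numbers, 17 of 27 arrays correlated best with their own, and whether the numbers pair the arrays was not tested. Signals under the detection limits, up to 7.42 at 1 h of SDF-1α, limit what can be read for the 5p strands.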
